A study of Homo sapiens with 6 samples.

Results

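Mitophagy receptors are proteins on or in mitochondria that mark the organelle for removal by autophagy. Their transcripts were followed on whole-transcript microarrays in NK-92MI cells, an interleukin-2-independent natural killer cell line. The 6 receptor genes BNIP3L, BNIP3, FUNDC1, BCL2L13, FKBP8 and PHB2 were taken with every probe set that the platform annotation assigned to that gene alone. These are 6 of 22260 genes in the table and hold 62 of its 352859 probe sets, with 10 for BNIP3L, 5 for BNIP3, 7 for FUNDC1, 16 for BCL2L13, 8 for FKBP8 and 16 for PHB2. The tested cells had received 5 µg of mitochondria isolated from WRL-68 cells, a line described as hepatic, by centrifugation (transfer, n = 3 arrays), and the others were control cells of the same line (control, n = 3 arrays). The labels attach the transfer protocol to every sample, so that they do not say whether the control cells were centrifuged, and no time of harvest is given for the arrays. The labels do not state whether the replicates were separate cultures, and p-values therefore measure the spread between these arrays. The 6 genes were chosen with the differences between transfer and control already known, and the calls given below for them are a description of these arrays.

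A receptor of this kind carries a short motif that binds the LC3 and GABARAP proteins of the autophagosome membrane, and so links a mitochondrion to the membrane that will enclose it. BNIP3L (also called NIX) and BNIP3 are related outer membrane proteins. Both are known transcriptional targets of hypoxia-inducible factor (HIF), and BNIP3L is best known for clearing mitochondria from maturing red blood cells. FUNDC1, BCL2L13 and FKBP8 are other outer membrane receptors. PHB2, a prohibitin, lies in the inner membrane and becomes accessible when the outer membrane ruptures.

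HIF binds DNA at short elements, and ACGTG is a common form of their core. The 250 bases before the annotated start in the RefSeq promoters of GRCh38.p14 were searched for this form alone, on either strand. It is called the core below, and other forms were not searched. Of 35116 windows of the same length, 18.5% held the core. Of the 6 genes, 4 were searched (BNIP3, FUNDC1, BCL2L13 and PHB2, with 7 windows in all), and BNIP3 was the one with a match; BNIP3L and FKBP8 were not analysed here. The windows of BNIP3 and FUNDC1 are shown because they are a member with and a member without the core, and capitals mark the matched letters. In BNIP3 these are overlapping matches on both strands, the first 134 bases before the start. The BNIP3 window is chr10:131981924-131982173 and the FUNDC1 window chrX:44542860-44543109, both on the minus strand and written 5′ to 3′.
BNIP3: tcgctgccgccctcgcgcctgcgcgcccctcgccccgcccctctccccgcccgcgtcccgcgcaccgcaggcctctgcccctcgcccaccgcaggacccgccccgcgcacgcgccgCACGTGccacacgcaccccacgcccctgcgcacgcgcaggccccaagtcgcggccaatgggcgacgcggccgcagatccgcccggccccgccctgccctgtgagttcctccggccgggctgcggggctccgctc
FUNDC1: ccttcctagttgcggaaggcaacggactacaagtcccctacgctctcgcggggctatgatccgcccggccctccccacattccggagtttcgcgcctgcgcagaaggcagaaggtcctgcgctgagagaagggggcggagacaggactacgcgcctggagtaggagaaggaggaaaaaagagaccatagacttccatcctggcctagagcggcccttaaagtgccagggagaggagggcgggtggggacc
A match of letters is a description and not a binding site.

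Each value is a log2 intensity that the authors made by RMA, and a probe set is a group of probes within an exon or part of one. Transfer arrays resembled each other less (Pearson's r of 0.903 to 0.907 over probe sets) than control arrays did (0.940 to 0.944), and less than they resembled the control arrays (0.912 to 0.917). The typical SD of a probe set was 0.413 among transfer arrays, against 0.312 among control arrays. Fewer cells of a type and less RNA per cell cannot be told apart in such bulk samples. The 95th percentile of 845 probe sets of olfactory receptor genes, 6.15, served as background. All 14 listed NK cell markers had a median over their probe sets above the same percentile of olfactory receptor genes (5.55), against 3 of 13 measured hepatocyte and 3 of 10 epithelial markers. The summed linear intensity of the NK markers was 12523 to 13409 on transfer arrays and 14393 to 15826 on control arrays. Such a sum is weighted towards the brightest genes. Of the 14 NK markers, 12 had negative and 2 positive differences, beside 44.8% positive among all genes. On 8 the transfer arrays all lay below the control arrays and on 2 above, beside 13.3% and 7.49% of all genes. The hepatocyte markers summed to 399 to 416 on transfer and 350 to 456 on control arrays, and albumin (ALB) was below background. The epithelial markers summed to 362 to 379 on transfer and 384 to 399 on control arrays. Their part in the results below was not tested.

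BNIP3L was higher after mitochondrial transfer on 8 of its 10 probe sets, without overlap between the groups. As the median of its probe sets, its log2 intensity was 10.39, 10.55 and 10.72 on the transfer arrays, against 8.35, 8.23 and 8.77 on the control arrays. The lowest transfer array thus lay above the highest control array. The group means were 10.56 ± 0.17 (SD, n = 3) in transfer and 8.45 ± 0.28 (SD, n = 3) in control cells, a difference of 2.11 (standard error 0.19) or 4.31-fold. BNIP3L rose in limma across 22260 genes (Benjamini-Hochberg adjusted p = 0.0104), where 0.0629% of genes were called higher, and its difference ranked 8 from the top. The adjusted p was 0.0577 to 0.0791 when transfer replicate 1, 2 or 3 or control replicate 1 or 2 was left out, and 0.0323 without control replicate 3, with differences between 2.00 and 2.27. It was 0.0602 with the replicate number as a block. An exact permutation test of 3 against 3 arrays cannot give a two-sided p below 0.1.

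**Figure D1:**
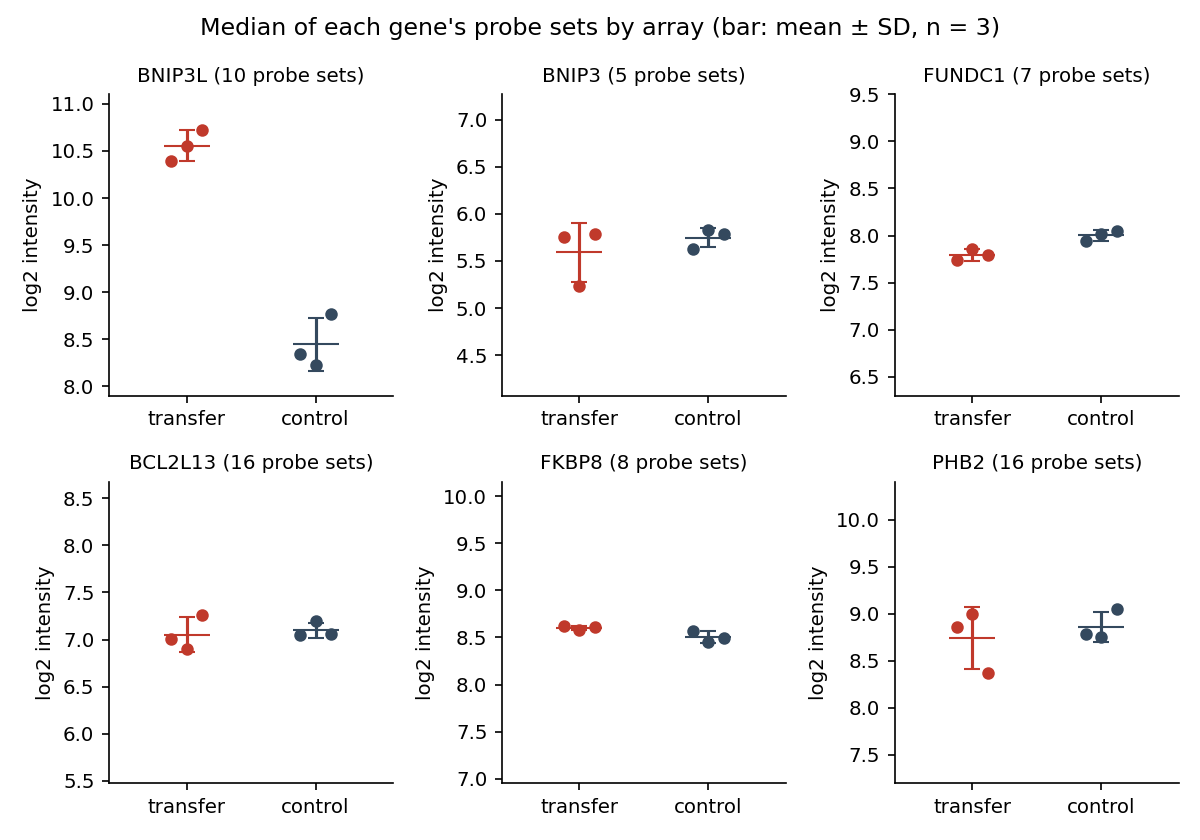
Log2 intensity of the 6 receptor genes on each array, each point being a median over the probe sets of a gene, with transfer arrays on the left and control arrays on the right of each panel (points: arrays; bars: mean ± SD, n = 3; every panel spans the same log2 range around its own mean). The BNIP3L values lie between 10.39 and 10.72 in transfer and between 8.23 and 8.77 in control cells.

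The rise of BNIP3L was spread over its probe sets. The 7 probe sets above background had differences of 1.26 to 2.49, with a median of 2.32. Probe set 17067175 read 10.90, 10.93 and 11.09 on transfer arrays, against 8.53, 8.66 and 8.78 on control arrays. Its difference was 2.32 (standard error 0.19, adjusted p = 0.0351 in limma over all 352859 probe sets). Probe set 17067176 read 11.48, 11.68 and 11.67 on transfer arrays, against 9.30, 9.31 and 9.49 on control arrays, which differ by 2.24 (standard error 0.18, adjusted p = 0.0369). On both, the arrays of a group lay close together compared with the gap between groups. Probe set 17067179 read 10.79, 11.15 and 11.06 on transfer arrays, against 8.72, 8.43 and 8.78 on control arrays, which differ by 2.35 (standard error 0.21, adjusted p = 0.0462). These 3 were the member probe sets that passed the threshold, none was called lower, and over all probe sets 0.0578% were called higher and 0.00340% lower. Over the probe sets above background the share called higher was 0.0958%. A gap of this direction between all arrays of the groups was seen in 7.53% of all probe sets and in 8.09% of those above background.

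The largest difference of the gene did not pass. Probe set 17067178 read 11.24, 11.33 and 11.36 on transfer arrays, against 8.88, 8.37 and 9.21 on control arrays, which differ by 2.49 (standard error 0.26, adjusted p = 0.0698). Its transfer arrays were less spread than its control arrays (SD 0.063 and 0.42). Among the probe sets above background, the smallest difference was that of 17067180, which read 10.28, 10.37 and 10.59 on transfer arrays, against 9.28, 8.95 and 9.21 on control arrays (difference 1.26, standard error 0.20). The groups were still apart. Probe set 17067174 had a mean at background, with 6.21, 5.35 and 5.19 on transfer arrays, against 4.09, 3.74 and 4.26 on control arrays, and a difference of 1.55 (standard error 0.33). The 2 exceptions were dim. Probe set 17067171 read 3.70, 5.43 and 5.01 on transfer arrays, against 6.14, 5.36 and 4.64 on control arrays, the lowest difference of the gene at −0.66 (standard error 0.57). On 17067181 the difference was −0.55 (standard error 0.55), and the groups overlapped on both. The 3 calls were absent with any array left out.

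**Figure D2:**
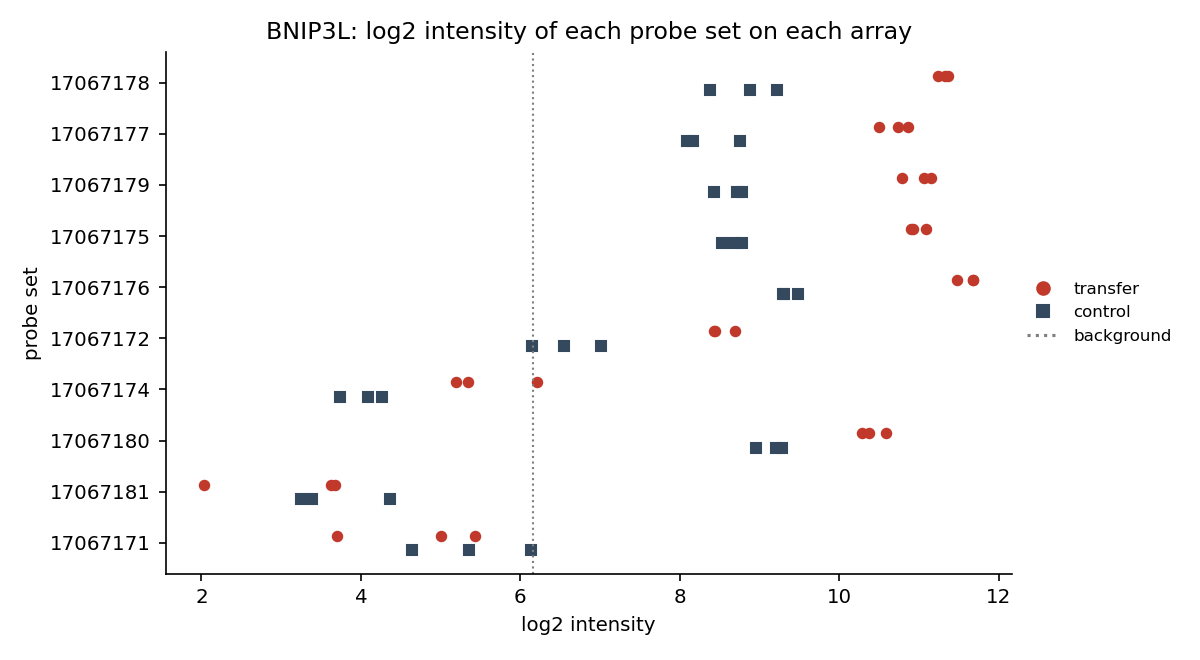
Log2 intensity (horizontal axis) of each of the 10 BNIP3L probe sets (vertical axis, by falling difference) on the 3 transfer arrays (circles) and 3 control arrays (squares), with the background of 6.15 as a dotted line. The groups do not overlap on 8 probe sets, and the 2 lowest rows overlap at or below background.

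BNIP3, the closest relative of BNIP3L, had a mean at or below background on each of its 5 probe sets, while its median over probe sets (5.67) lay just above the gene background of 5.55. The median of its probe sets was 5.76, 5.23 and 5.79 on transfer arrays, against 5.63, 5.83 and 5.78 on control arrays. The groups overlapped (difference −0.16, standard error 0.19). Transfer replicate 2 was the lowest array, and without it the difference was 0.026. Of the probe sets, 16719645 had the lowest difference, with 5.43, 5.23 and 5.20 on transfer arrays against 5.63, 5.83 and 5.37 on control arrays (−0.32, standard error 0.21). The highest was that of 16719651, at 3.91, 4.30 and 2.86 on transfer arrays against 2.31, 4.55 and 3.49 on control arrays (0.24, standard error 0.65). The groups overlapped on all 5. A further 3 probe sets are annotated to BNIP3 and its pseudogene BNIP3P1 together and were not counted as members. They overlapped between the groups as well, with differences of −0.24, 0.21 and −0.96, and 1 of them had a mean above background.

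**Figure D3:**
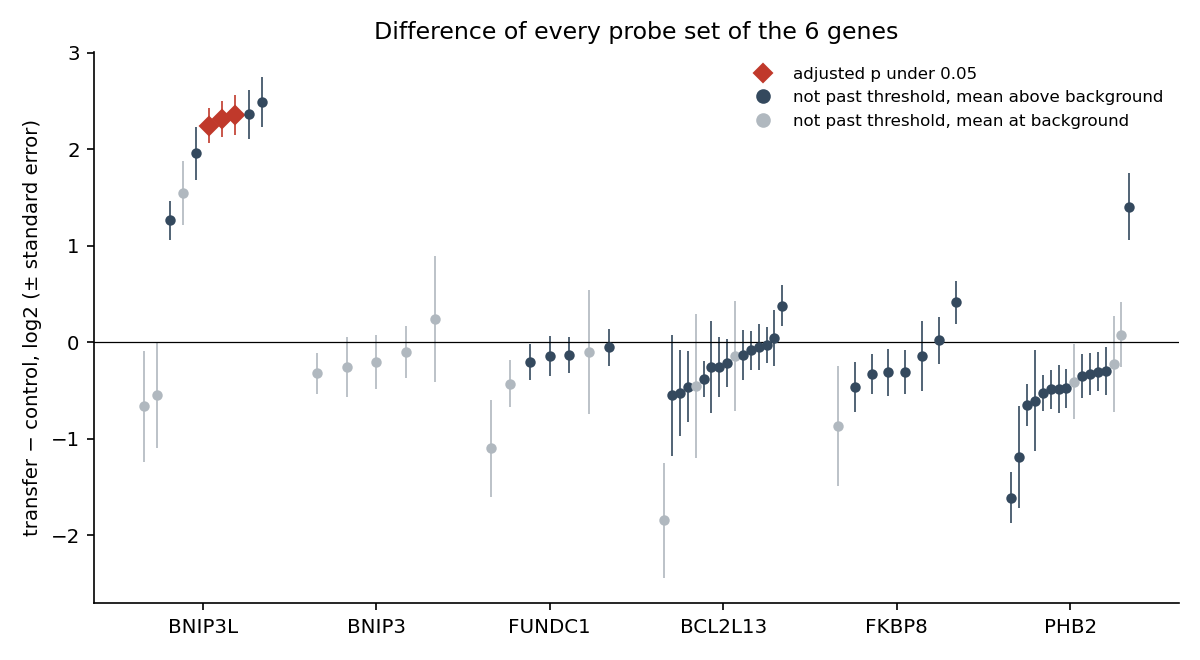
Difference between transfer and control (log2, with the standard error from limma) of all 62 probe sets, grouped by gene and sorted within each gene. Diamonds mark the 3 BNIP3L probe sets with an adjusted p under 0.05, and pale points mark probe sets with a mean at background, such as all 5 of BNIP3.

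None of the 52 probe sets of BNIP3, FUNDC1, BCL2L13, FKBP8 and PHB2 passed the threshold in limma. Before adjustment, 1 of them was higher and 4 were lower at p under 0.05. Over all probe sets 4.68% were higher and 5.36% lower by that measure, and 6.10% of those above background were lower. By direction, 45 of the 52 had negative differences, compared to 54.9% of all probe sets. Of the 37 above background, 32 were negative, where the share among all probe sets above background was 61.0%. In a fit over the probe sets above background alone, 1 of the 37 was called lower, 16760660 of PHB2 (adjusted p = 0.0455), and none was called higher. All 7 BNIP3L probe sets in that fit were called higher. The shares over all probe sets in it were 0.459% higher and 0.0742% lower.

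FUNDC1, a receptor whose binding to LC3 is switched by phosphorylation, had negative differences on all 7 probe sets, and none passed the threshold. Its median was 7.74, 7.86 and 7.79 on transfer arrays, against 7.94, 8.02 and 8.05 on control arrays. The groups did not overlap, as in 13.3% of all genes in this direction, and the difference was −0.21 (standard error 0.14, adjusted p = 0.539 in limma). The 4 probe sets above background differed by −0.21 to −0.05. The lowest difference was on the dim probe set 17110346, with 4.83, 3.16 and 3.39 on transfer arrays against 5.17, 4.38 and 5.13 on control arrays (−1.10, standard error 0.50). The smallest, on 17110347, was −0.05 (standard error 0.19), from 8.08, 8.15 and 7.79 on transfer arrays against 8.06, 8.02 and 8.11 on control arrays.

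BCL2L13, the mammalian counterpart of the yeast receptor Atg32, differed by less than its standard error. Its median was 7.00, 6.90 and 7.26 on transfer arrays, against 7.04, 7.19 and 7.06 on control arrays (difference −0.05, standard error 0.16, adjusted p = 0.922). The groups overlapped. Of its 16 probe sets, 14 were negative, with a median difference of −0.24 over the probe sets. The lowest was 16926896, with 5.00, 3.19 and 5.37 on transfer arrays against 6.03, 6.28 and 6.79 on control arrays (−1.85, standard error 0.60), and its mean lay at background. The highest was 16926909, with 6.97, 7.04 and 7.44 on transfer arrays against 6.77, 6.91 and 6.65 on control arrays (0.38, standard error 0.22). The groups were apart on both of these, in opposite directions. Of the 16 probe sets, the transfer arrays all lay above on 1 and below on 2. Over all probe sets the shares were 7.53% above and 10.3% below.

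FKBP8, a membrane-anchored immunophilin that binds BCL2 as well as LC3A, changed sign with the way its 8 probe sets were combined. By the median its values were 8.62, 8.58 and 8.61 on transfer arrays, against 8.57, 8.45 and 8.50 on control arrays. The difference was 0.10 (standard error 0.14, adjusted p = 0.788), whereas the mean of the probe sets gave −0.25 and the brightest probe set −0.31. None of these passed the threshold. The highest probe set was 16870438, with 8.92, 8.55 and 8.39 on transfer arrays against 8.28, 8.33 and 8.02 on control arrays (0.41, standard error 0.22). The lowest, the dim 16870433, read 3.17, 4.28 and 5.71 on transfer arrays, against 5.42, 5.07 and 5.28 on control arrays (−0.87, standard error 0.62). Its transfer arrays covered a wider range than its control arrays.

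PHB2 had mostly negative differences. Of its 16 probe sets, 14 had negative differences, and on 8 the transfer arrays all lay below the control arrays. This was so for 10.3% of all probe sets and for 15.2% of those above background, where these 8 belong. None passed the threshold. Probe set 16760660 had the lowest difference, with 6.72, 5.89 and 6.31 on transfer arrays against 8.04, 7.94 and 7.77 on control arrays (−1.61, standard error 0.26, adjusted p = 0.192). A more typical one, 16760661, read 9.90, 10.04 and 9.93 on transfer arrays, against 10.33, 10.63 and 10.50 on control arrays (−0.53, standard error 0.19). The spread within each group was smaller than this gap. Probe set 16760663 went the other way, with 8.97, 9.23 and 8.01 on transfer arrays against 7.39, 7.25 and 7.37 on control arrays (1.40, standard error 0.35, adjusted p = 0.341).

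The summary of PHB2 as a gene depended on how its probe sets were combined. The median per array was 8.86, 9.00 and 8.37 on transfer arrays, against 8.78, 8.76 and 9.05 on control arrays. The groups overlapped (difference −0.12, standard error 0.20, adjusted p = 0.827), and without transfer replicate 3 the difference was 0.067. The median of the differences of the 16 probe sets was −0.44, and the mean of the probe sets per array gave −0.41 (adjusted p = 0.131). PHB1, the partner with which PHB2 forms a ring complex, differed by −0.48 (standard error 0.22, adjusted p = 0.389). The groups overlapped.

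**Figure D4:**
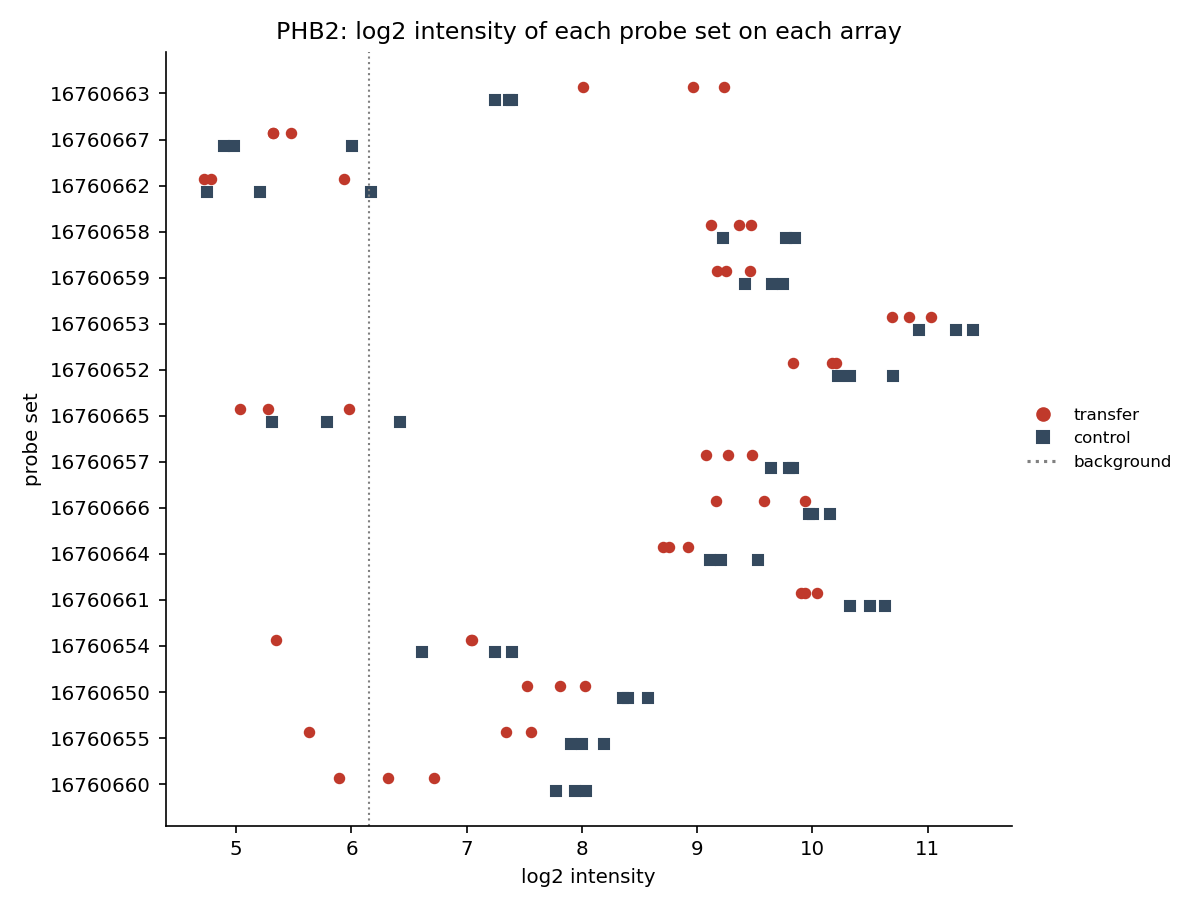
Log2 intensity (horizontal axis) of each of the 16 PHB2 probe sets (vertical axis, by falling difference) on the 3 transfer arrays (circles) and 3 control arrays (squares), with the background of 6.15 as a dotted line. On 8 probe sets the transfer arrays all lie below the control arrays, and on 16760663, the top row, they lie above.

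The genes that act with these receptors were described from lists chosen with earlier results of these data known. No gene of the lists of other receptors, the ATG8 family or receptor regulators passed the threshold in limma, where 0.0629% of all genes were called higher and 0.00898% lower. Before adjustment, each list held at most 1 higher and at most 2 lower genes at p under 0.05, where all genes gave 5.27% higher and 8.14% lower. The 9 other receptors and receptor-associated genes had a median difference of −0.14, the 7 ATG8 genes 0.017 and the 20 regulators −0.20, beside −0.037 for all genes. Of these lists, 8, 5 and 19 genes lay above the gene background. Negative differences were more common among probe sets above background (61.0%) than among all probe sets (54.9%).

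Among the LC3 and GABARAP genes that receptors bind, MAP1LC3B had the smallest p, with 6.53, 6.31 and 7.00 on transfer arrays against 5.68, 5.96 and 6.20 on control arrays (difference 0.66, standard error 0.22, adjusted p = 0.288). The groups did not overlap, as in 7.49% of all genes in this direction. GABARAPL2 and GABARAP had differences of −0.21 and −0.14. Of the regulators, BCL2L1, a survival protein that binds BH3 proteins, had 9.07, 9.15 and 9.13 on transfer arrays against 9.47, 9.55 and 9.62 on control arrays (difference −0.43, standard error 0.14, adjusted p = 0.272). CSNK2B, a subunit of the kinase CK2 that phosphorylates FUNDC1, had a difference of −0.41 (standard error 0.14, adjusted p = 0.292). HIF1A, the oxygen-regulated HIF subunit, had a difference of −0.25 (standard error 0.17). Among the other receptor genes, DISC1 had a difference of 0.54 at background, the mitochondrial ubiquitin ligase gene MUL1 −0.43 and the autophagy regulator AMBRA1 −0.32 (adjusted p = 0.328, 0.336 and 0.452).

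Set beside the listed HIF targets, BNIP3L lay below P4HA1 and above all others, and BNIP3 lay above ALDOC and below all others. Both BNIP3 and ALDOC were dim, with means of 5.67 and 5.52 beside a gene background of 5.55. Their differences were −0.16 (standard error 0.19) and −0.18 (standard error 0.34). This list was also chosen with earlier results of these data known, and its counts are a description. Without BNIP3L and BNIP3, it had 25 measured genes. Of these, 3 were higher by the limma test and none was lower, where 0.0629% of all genes were called higher. Positive differences were found in 23 of the 25, compared to 44.8% of all genes. Its median difference was 0.67, beside −0.037 for all genes, and on 17 the transfer arrays all lay above the control arrays, compared to 7.49% of all genes. Before adjustment, 16 genes of the list were higher and none was lower at p under 0.05, beside 5.27% higher and 8.14% lower over all genes. P4HA1, a collagen prolyl hydroxylase subunit, had 9.49, 9.30 and 9.62 on transfer arrays against 7.63, 6.94 and 7.19 on control arrays and rose by 2.21 (standard error 0.20, adjusted p = 0.0104). PFKFB4, which controls the level of a glycolytic activator, rose by 1.70 (standard error 0.18, adjusted p = 0.0198). PGK1, a glycolytic kinase, rose by 1.33 (standard error 0.16, adjusted p = 0.0427). The targets EGLN3, CA9 and ADM had differences of 0.086, 0.093 and −0.071. Their mean intensities were 4.12, 5.70 and 5.87, the first below the gene background of 5.55 and the others just above it. With any array left out, 0 or 1 gene of the list passed, and the replicate block left 0.

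**Figure D5:**
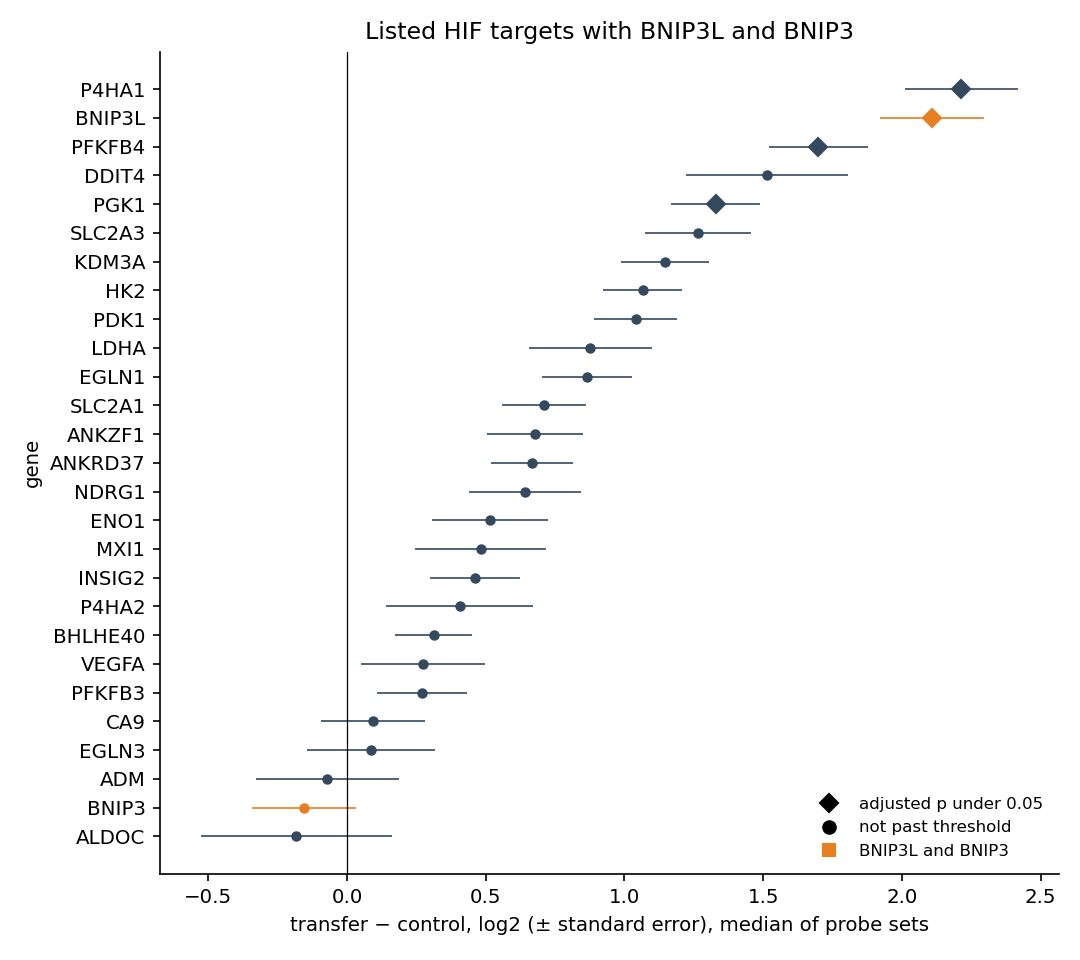
Difference between transfer and control (log2, with the standard error from limma) of the listed HIF targets as the median of each gene's probe sets, sorted from high (top) to low, with BNIP3L and BNIP3 in orange. Diamonds mark an adjusted p under 0.05; BNIP3L stands at 2.11 and BNIP3 at −0.16.

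The genes whose values most resembled those of BNIP3L over the 6 arrays were sought among 11205 genes with at least 3 probe sets and a mean above background. They were PDIK1L, AGBL5, PFKFB4, PTAFR and GBE1, with Pearson's r between 0.986 and 0.991. This is a description over 6 arrays in 2 groups. Their differences were unequal, at 0.17 for the kinase gene PDIK1L, 0.62 for the carboxypeptidase gene AGBL5, 2.04 for PTAFR, the receptor of platelet-activating factor, and 1.58 for GBE1, the glycogen branching enzyme. PTAFR and GBE1 rose in limma (adjusted p = 0.0104 for each). PTAFR read 8.72, 8.76 and 8.97 on transfer arrays, against 6.96, 6.50 and 6.86 on control arrays. For BNIP3, which was at background, the most similar genes were GON7, TM4SF19-AS1, SIRT1, FAAH and NUDT6 (r between 0.985 and 0.988), all lowest on transfer replicate 2 like BNIP3 itself.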

How the data were processed

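NK-92MI cells were measured on 6 Affymetrix arrays, 3 after mitochondrial transfer and 3 controls, grouped by their labels. The deposited values are log2 intensities that the authors made with RMA in Affymetrix Power Tools, per the labels. The version, genome build and probe filter are not given in the sources used here. RMA brings the arrays close to a common distribution, so that a true shift of all genes cannot be seen. The medians of the deposited values were 6.05 to 6.06 on transfer and 6.09 to 6.10 on control arrays. Of 352859 probe sets, 259224 named 1 gene, 13116 named several and 80519 none. Symbols were matched to RefSeq (20529 current, 1726 updated, 65 unmatched).

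Differences (transfer minus control) came from limma 3.58.1 in R 4.3.3, with version 1.17.8 of data.table (lmFit, eBayes; Benjamini-Hochberg, threshold 0.05), for all 352859 probe sets and for 22260 genes as the median of their probe sets. The procedure was tested on simulated data. The changed features were drawn at random from all probe sets or all genes, dim ones included. Noise was normal, with a spread taken from each feature's own arrays. The rates are therefore not those of bright probe sets with little spread, such as the called ones of BNIP3L. There, 0 of 100 probe sets given a log2 difference of 2 were recovered, and 44 of 100 given a difference of 4. Among genes, 46 of 100 given a log2 difference of 1 were recovered, and 86 of 100 given a difference of 2. False calls were made for 0 of 352659 unchanged probe sets and 5 of 22060 unchanged genes. The members and all lists were chosen with earlier results of these data known. Named were all members, their called probe sets and those with the highest and lowest differences, the 3 genes of each reported pathway list (not of the cell type marker lists) with the smallest p, and the 5 genes most like BNIP3L and BNIP3. Others (HIF1A, ALB, EGLN3, CA9, ADM, ALDOC, 17067174, 17067180, 17067181, 16760661 and the shared probe sets) were chosen after their values were seen. Alternatives were other normalizations, a filter on dim features, trend and robust, array weights, a replicate block, each array left out, the methods' t-test and other gene values. 1 pathway list is not reported here. The number of arrays limits the precision.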

Additional observations from a re-analysis of the deposited data

How the results depend on the processing

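The difference of BNIP3L was positive under all 17 alternatives, between 1.53 (mean of probe sets) and 2.28 (median of probe sets above background). Its call was lost with the replicate block (2.11, adjusted p = 0.0602), with the methods' t-test (2.11, adjusted p = 0.146) and without transfer replicates 1, 2 and 3 or control replicates 1 and 2, and its range with 1 array left out was 2.00 to 2.27. Of 62 member probe sets, 3 were called higher, but 7 with the filter on dim features and with trend and robust. The count was 2 with array weights, and 0 with the replicate block, with the methods' t-test and with any array left out. No member probe set was called lower except 1 of PHB2 with the filter. Of 25 HIF targets, 3 were called higher, but 4 with quantile normalization, 4 with cyclic loess, 9 with the filter and 11 with trend and robust. The count was 11 with the brightest probe set, 10 with the mean of probe sets and 9 with the median of probe sets above background. It was 0 with the block, 0 with the methods' t-test and 0 to 1 with 1 array left out. These alternatives for HIF targets were chosen after seeing the data, as was a BNIP3 value that includes the probe sets shared with BNIP3P1.

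Signs turned for differences that did not pass in any fit: BNIP3 (−0.25 to 0.026 with 1 array left out, 0.026 without transfer replicate 2), BCL2L13 (0.011 with quantile normalization, 0.030 after cyclic loess, −0.15 to 0.029 with 1 array left out), PHB2 (−0.25 to 0.067) and FKBP8 (−0.31 with the brightest probe set, −0.25 with the mean). The cause was not tested. BNIP3 had no value as the median of probe sets above background. The deviations of same-numbered arrays from their group means correlated at 0.030, 0.0020 and −0.0100. Such values do not settle whether the arrays were paired. With 3 arrays a group, the differences of the 5 genes other than BNIP3L did not pass, which does not show that they were unchanged.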

Other observations

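BNIP3L and BNIP3 were first described as BH3-containing partners of BCL2, and other genes of that family were examined from a list chosen with earlier results known. Of 13 measured genes, none passed the threshold in limma, and before adjustment 1 was higher and 2 were lower at p under 0.05, with a median difference of −0.041. Over all genes 5.27% were higher and 8.14% lower by that measure, and the median was −0.037. BAK1, a pore-forming death effector, read 7.43, 7.77 and 7.62 on transfer arrays, against 8.01, 8.47 and 8.48 on control arrays (difference −0.71, standard error 0.19, adjusted p = 0.233). BAX, its relative, differed by −0.50 (standard error 0.20, adjusted p = 0.352) with groups that overlapped. BIK, a BH3-only gene, had a difference of 0.66 (adjusted p = 0.272) with a mean at background.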
